A study of Mus musculus with 30 samples.

Results

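A set of 10 genes of the endoplasmic reticulum (ER) was followed through differentiation in cells with and without Abcb10: the chaperones *Hspa5*, *Hsp90b1*, *Calr* and *Canx*, the disulfide isomerases *Pdia3*, *Pdia4* and *Pdia6*, the co-chaperones *Dnajb9* and *Sdf2l1*, and the transcription factor gene *Xbp1*. They were chosen by symbol as ER chaperones and members of the unfolded protein response, and all 10 were found among the 54532 genes of the count table and passed the filter on low counts in each comparison. The cells were murine erythroleukemia (MEL) cells, an erythroid precursor line of mouse that starts to make hemoglobin in dimethyl sulfoxide (DMSO). WT MEL cells (the DS19 line) and Abcb10 knockout MEL cells (here Abcb10-null) were sampled untreated (day 0) and on days 2 and 5 of exposure to 1.5% DMSO, with 5 libraries for each genotype and day and 30 in all. Abcb10 is a transporter of the inner mitochondrial membrane, and the Abcb10-null cells carried a CRISPR/Cas9 edit of its gene and, from the methods of the study, were grown from single sorted cells. A difference between genotypes is therefore also a difference between an edited clone and its parental line. The libraries of a group were labelled as biological replicates, and the p-values measure the spread between them.

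Proteins that enter the ER are folded there by chaperones and joined by disulfide bonds before they move on to the Golgi. When unfolded proteins build up, 3 sensors in the ER membrane, encoded by *Ern1* (IRE1), *Eif2ak3* (PERK) and *Atf6*, start the unfolded protein response (UPR). IRE1 splices *Xbp1* mRNA into the form that encodes the active factor, PERK phosphorylates eIF2 and so favours translation of *Atf4* mRNA, and ATF6 is cut to release a transcription factor, after which genes of chaperones, folding enzymes and degradation factors are raised. Other eIF2 kinases, which respond to amino acid or heme shortage, act through *Atf4* without the ER. Gene counts do not show the splicing of *Xbp1*, the phosphorylation of PERK or the cutting of ATF6, so what follows is about mRNA levels.

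The libraries held between 9906783 and 20157768 counts each (median 16492116.5). *Abcb10* itself, the edited gene, was at 112 to 126 counts per 1000000 counts (CPM) in WT and 67.1 to 79.3 in Abcb10-null libraries at day 0, and at 1148 to 1263 against 177 to 237 at day 5. At day 2 it was at 474 to 660 CPM against 162 to 312, where Abcb10-null replicate 3 held 312 CPM and the other Abcb10-null libraries 162 to 189. The *Abcb10* level did not overlap between the genotypes at any of the 3 days. The 6 erythroid markers given here (*Gata1*, *Klf1*, *Tal1*, *Epor*, *Alas2* and *Slc4a1*) had a summed level of 915 to 1079 CPM at day 0, 1655 to 1754 in WT and 908 to 1418 in Abcb10-null cells at day 2, and 6074 to 9761 and 2938 to 4136 at day 5. *Slc4a1* was at 0 to 0.512 CPM at day 0, and the 6 markers were each detected at day 5. Of the plasma cell markers, which would mark a secretory cell, *Jchain* stayed under 1 CPM in every library and *Tnfrsf17*, *Irf4* and *Mzb1* reached at most 1.23, 1.54 and 2.07 CPM. *Sdc1*, the remaining plasma cell marker, was at 48.3 to 72.1 CPM at day 0 and at 15.8 to 37.5 CPM at day 5. The summed B cell, mast cell and fibroblast markers reached at most 5.12, 5.78 and 6.25 CPM in a library, and the summed macrophage markers were at 7.22 to 14.5 CPM at day 0 and at 0.961 to 8.85 CPM at day 5. The part of these markers in the results was not tested.

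A pair of libraries stood apart from their groups in *Ddit3* and in the erythroid marker sum. WT day 5 replicate 5 held 3022 CPM of *Hspa5* and 321 CPM of *Ddit3*, where the other WT day 5 libraries held 1276 to 1687 and 54.5 to 72.4. Its globin share, 0.154% of counts against 0.246% to 0.312%, and its erythroid marker sum, 6074 CPM against 7751 to 9761, were the lowest of that group, while its *Abcb10* level of 1263 CPM was that of WT cells. Abcb10-null day 2 replicate 2 held 29.3 CPM of *Ddit3* where the other libraries of its group held 219 to 514, and its erythroid marker sum was 908 CPM against 1171 to 1418. Its *Abcb10* level, 166 CPM, was that of Abcb10-null cells. Several results that rest on either library are given with and without it, and the others are given with all libraries only.

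Per kilobase of the longest annotated transcript, which allows levels of different genes to be compared, *Hspa5* was the most abundant of the 10 genes in all 6 groups and *Dnajb9* the least. At day 0 in WT cells the mean level was 1129 CPM per kilobase for *Hspa5*, 390 for *Hsp90b1*, 354 for *Canx*, 311 for *Pdia6*, 260 for *Sdf2l1*, 189 for *Calr*, 179 for *Pdia4*, 167 for *Pdia3*, 92.8 for *Xbp1* and 2.87 for *Dnajb9*. The order below *Hspa5* depended on the transcript length used: over all exon bases of a gene, *Canx* (323 CPM per kilobase) and *Hsp90b1* (311) changed places, and their ranges of 306 to 346 and 303 to 332 overlapped. *Xbp1* was 9th of the 10 at day 0 in both genotypes on the scale of exon bases. In Abcb10-null cells at day 5 it was 4th on either scale, and its range of 77.3 to 92.1 CPM per kilobase of exon bases overlapped that of *Calr* (45.2 to 86.9). In WT cells at day 5 its place depended on the length used, 8th over exon bases (49.6) and 6th by the longest transcript (75.7). Together the 10 genes took 0.874% to 0.919% of all counts in WT cells at day 0 and 0.757% to 0.80% in Abcb10-null cells. At day 5 they took 0.322% to 0.580% in WT and 0.482% to 0.631% in Abcb10-null cells, and the highest WT share was that of replicate 5.

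The promoters of these genes are shown here as a description, and the part of any motif in the changes that follow was not tested. ATF6, with the factor NF-Y, is known to bind the ER stress response element, which was searched as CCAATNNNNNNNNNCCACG on both strands of the RefSeq promoters (GRCm38.p6, 250 bases before to 50 after the start). It was present in 5 of the 10 promoters (*Hspa5*, *Hsp90b1*, *Calr*, *Canx* and *Pdia6*) and in 39 of 32851 promoters of the genome (0.119%). With the last letter left free, a form chosen after the sequences were seen, *Pdia3* and *Pdia4* joined them, against 120 of 32851 promoters (0.365%). The related element ATTGGNCCACG (0.0365% of promoters) and the element TGACGTGG (0.676%) had no match in any of the 10, and *Dnajb9*, *Xbp1* and *Sdf2l1* matched none of the motifs in this window. Below, each site is given in the 5′ to 3′ direction of its gene, with the fixed letters of the motif in capitals; in *Calr*, *Pdia4* and the second site of *Hsp90b1* the motif lies on the opposite strand and so reads CGTGG or GTGG first.
Hspa5, chr2:34772020-34772048, + strand: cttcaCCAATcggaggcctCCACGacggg
Hsp90b1, first site, chr10:86705633-86705661, - strand: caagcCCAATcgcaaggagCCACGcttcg
Hsp90b1, second site, chr10:86705528-86705556, - strand: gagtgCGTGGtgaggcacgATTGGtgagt
Calr, chr8:84847070-84847098, - strand: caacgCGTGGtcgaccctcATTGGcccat
Canx, chr11:50325795-50325823, - strand: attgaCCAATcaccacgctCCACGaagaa
Pdia6, chr12:17266486-17266514, + strand: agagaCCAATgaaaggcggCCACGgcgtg
Pdia3, chr2:121413868-121413895, + strand: cgcagCCAATcggcggctgCCACactgc
Pdia4, chr6:47813597-47813624, - strand: accgaGTGGcagcccgtgATTGGtggtc
The sites lie between 217 and 7 bases before the RefSeq start, counted with their 5 flanking bases: the site of *Hspa5* spans bases -70 to -42 and that of *Pdia3*, the nearest to a start, bases -34 to -7. In the GENCODE annotation the *Hspa5* and *Pdia3* sites fall inside an annotated exon of their own gene, and the others lie upstream of the gene. A match is a description of letters, not a bound site. The 10 genes were chosen as ER chaperone and UPR genes, so their contrast with all promoters is not an independent test.

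**Figure D1:**
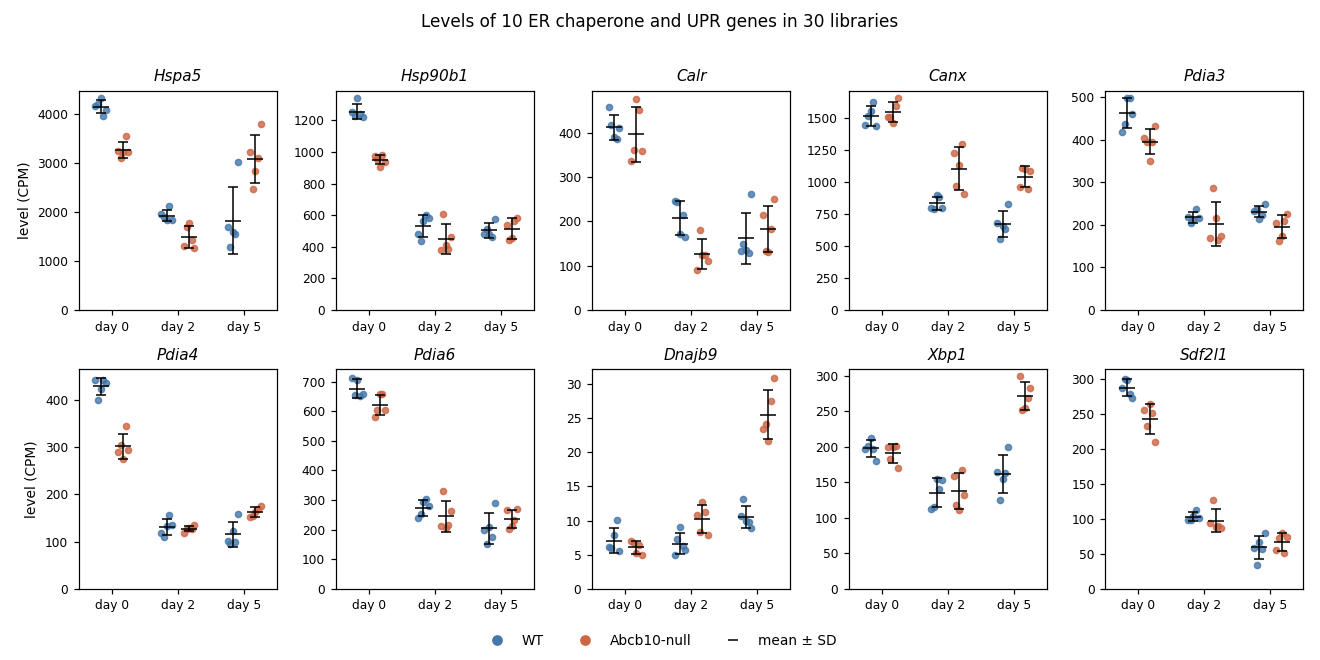
Level of each of the 10 genes in CPM (vertical axis, from 0) in each library by day of 1.5% DMSO, in WT (blue) and Abcb10-null (orange) MEL cells. Points are libraries and black marks the mean ± SD of 5. In WT cells 9 genes at day 2 and 8 at day 5 lay below day 0 without overlap, where 24.8% and 28.7% of all genes tested did, *Dnajb9* and *Xbp1* were highest in Abcb10-null cells at day 5, and WT day 5 replicate 5 is the single high *Hspa5* point at 3022 CPM.

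To ask how these genes behave in WT differentiation, day 2 and day 5 were each compared with day 0 in WT cells. In 2 days of DMSO 9 of the 10 genes fell and none rose (edgeR; 0 at an unadjusted p under 0.05 and 0 by DESeq2), where 30.7% of 12839 tested genes fell and 31.5% rose. The median change of the 10 genes was -1.10 on the log2 scale, beside 0.0096 over all genes tested. At day 5 the same 9 genes were below day 0 and *Dnajb9* was above it, against 34.7% of 12723 genes lower and 36.5% higher, and the median of the 10 was -1.25 beside 0.023. These comparisons share the WT day 0 libraries.

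*Hspa5* (ENSMUSG00000026864, chr2:34771970-34777547, + strand, GRCm38), which encodes BiP, the ATP-dependent chaperone of the ER that also holds the UPR sensors inactive, was at 4172, 4200, 4321, 3969 and 4074 CPM in the 5 WT day 0 libraries. In WT cells at day 2 it was at 1950, 1890, 1834, 2125 and 1837 CPM, so that every day 2 library was below every day 0 library. It fell by 1.11 on the log2 scale at day 2 (SE 0.079, edgeR adjusted p = 1.64e-07). At day 5 the WT libraries held 1687, 1276, 1585, 1549 and 3022 CPM, with 4 libraries close together and replicate 5 well above them. The change from day 0 was -1.19 (SE 0.19, edgeR adjusted p = 8.36e-05) and -1.44 without that library (edgeR adjusted p = 1.89e-08).

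*Hsp90b1*, which encodes GRP94, the HSP90 of the ER, went from 1251, 1228, 1339, 1240 and 1220 CPM at day 0 to 480, 437, 560, 603 and 584 CPM at day 2 and 483, 515, 482, 460 and 575 CPM at day 5 in WT cells. The days 2 and 5 overlapped, and both lay below day 0 (log2 changes of -1.24 ± 0.10 and -1.32 ± 0.088, SE). The annotated exons of *Hsp90b1* share 10.3% of their bases with a pseudogene on the opposite strand and up to 3.3% with small genes on its own strand, and the strand setting of the counting was not given in the sources used here. The lectin chaperones, which hold newly made glycoproteins, fell as well: *Calr* by 0.99 (SE 0.11) by day 2 and 1.36 (SE 0.18) by day 5, and *Canx* by 0.87 (SE 0.079) and 1.18 (SE 0.11).

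The disulfide isomerases make and rearrange disulfide bonds. *Pdia4* (ERp72; chr6:47796141-47813430, - strand) fell further in WT cells than *Pdia3* (ERp57, which works with calreticulin and calnexin) or *Pdia6* (P5): its log2 change was -1.71 ± 0.097 at day 2 and -1.90 ± 0.13 at day 5, beside -1.09 ± 0.079 and -1.0 ± 0.085 for *Pdia3* and -1.31 ± 0.086 and -1.73 ± 0.14 for *Pdia6*. These differences between genes were not tested. *Pdia4* was at 442, 399, 423, 441 and 436 CPM at day 0 and at 100, 94.1, 122, 98.7 and 159 CPM at day 5. *Sdf2l1*, part of an ER complex that works with BiP and its J-domain partners, had the deepest fall of the 10, -2.28 ± 0.17 at day 5 (edgeR adjusted p = 7.50e-08). Its WT libraries went from 288, 301, 298, 279 and 273 CPM at day 0 to 58.0, 34.4, 66.8, 57.4 and 80.2 CPM at day 5.

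*Xbp1* had the smallest of the 9 falls in WT cells at both days, and *Dnajb9* did not fall; the differences between genes were not tested. *Xbp1* (ENSMUSG00000020484, chr11:5520659-5525893, + strand), the factor gene downstream of IRE1, was at 196, 201, 213, 197 and 180 CPM in WT cells at day 0. At day 5 it was at 165, 124, 154, 163 and 200 CPM, where replicate 5 alone reached the day 0 range. It fell by 0.55 (SE 0.11) at day 2 and by 0.29 (SE 0.11, edgeR adjusted p = 0.0281) at day 5, and the day 5 call held in 8 of 10 fits that left out a library. Without WT day 5 replicate 5 its day 5 change was -0.384 (edgeR adjusted p = 0.00216). *Dnajb9* (ERdj4; ENSMUSG00000014905, chr12:44205559-44210326, - strand), a J-domain co-chaperone of BiP and a known XBP1 target, was low in WT cells, at 5.47 to 10.01 CPM (82 to 141 reads) at day 0 and 8.94 to 13.1 CPM at day 5. Its change of 0.57 at day 5 (SE 0.19, edgeR adjusted p = 0.0170) held in 7 of 10 such fits, and at day 2 its change was -0.090 (SE 0.21, edgeR adjusted p = 0.730).

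**Figure D2:**
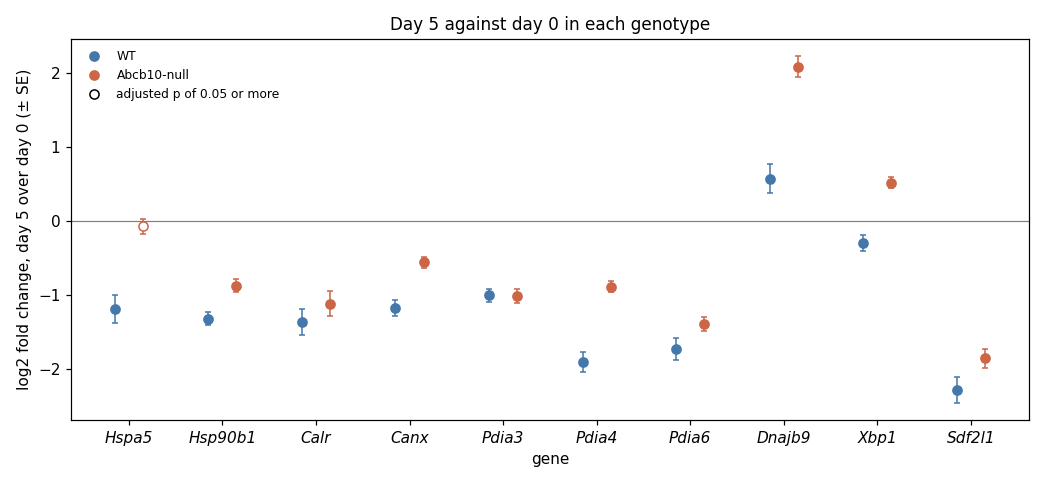
Log2 fold change of day 5 over day 0 for each gene, in WT (blue) and Abcb10-null (orange) cells, from edgeR with its SE as bars; open circles are changes with an adjusted p of 0.05 or more. The 2 genotypes stand farthest apart for *Hspa5* (-1.19 and -0.069), *Pdia4* (-1.90 and -0.88), *Dnajb9* (0.57 and 2.08) and *Xbp1* (-0.29 and 0.52), and side by side for *Pdia3* (-1.0 and -1.01).

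In Abcb10-null cells most of the genes fell by day 2, and fewer were below day 0 at day 5. At day 2, 9 of the 10 genes were below day 0 and *Dnajb9* was above it, where 20.1% of 12940 tested genes fell and 23.1% rose, with a median of -1.08 for the 10 genes and 0.033 for all genes. At day 5, 7 genes were below day 0, *Dnajb9* and *Xbp1* were above it and *Hspa5* did not pass the test, where 33.3% of 12915 genes fell and 33.9% rose. The median of the 10 genes at day 5 was -0.88, beside 0.014 over all genes. By day 2 *Calr* changed by -1.62 in Abcb10-null and -0.99 in WT cells, *Pdia4* by -1.21 and -1.71, *Canx* by -0.46 and -0.87, and *Dnajb9* by 0.78 (edgeR adjusted p = 0.00346) and -0.090. Whether the change to day 2 differed between the genotypes was not tested.

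The Abcb10-null libraries held 3241, 3094, 3221, 3551 and 3216 CPM of *Hspa5* at day 0, 1297, 1692, 1776, 1419 and 1264 CPM at day 2 and 3224, 2475, 2841, 3107 and 3797 CPM at day 5. *Hspa5* thus fell by 1.10 on the log2 scale by day 2 (SE 0.12, edgeR adjusted p = 1.40e-05), and its day 5 libraries again overlapped those of day 0 (-0.069, SE 0.099, edgeR adjusted p = 0.550). *Dnajb9* went from 6.98, 6.76, 5.17, 6.46 and 4.91 CPM at day 0 to 10.8, 8.36, 12.7, 11.3 and 7.92 CPM at day 2 and 23.5, 24.1, 21.6, 27.5 and 30.8 CPM at day 5. Every day 2 library was above every day 0 library, and every day 5 library above both, and the day 5 change was 2.08 (SE 0.14, edgeR adjusted p = 3.29e-09), a 4.23-fold rise.

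*Xbp1* in Abcb10-null cells was at 199, 183, 200, 200 and 170 CPM at day 0, at 159, 118, 111, 167 and 132 CPM at day 2 and at 299, 251, 255, 268 and 283 CPM at day 5. It fell by 0.44 at day 2 (SE 0.12, edgeR adjusted p = 0.00893) and was 0.52 above day 0 at day 5 (SE 0.078, edgeR adjusted p = 2.30e-05), when every library was above every other Abcb10-null library. The chaperones and isomerases other than *Hspa5* stayed low: at day 5 *Sdf2l1* was at -1.85, *Pdia6* at -1.39, *Calr* at -1.11, *Pdia3* at -1.01, *Pdia4* at -0.88, *Hsp90b1* at -0.87 and *Canx* at -0.56 relative to day 0.

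Whether the change from day 0 to day 5 differed between genotypes was tested as the interaction of genotype and day over 20 libraries. It was positive, a smaller fall, a larger rise or a rise in place of a fall in Abcb10-null cells, for 6 of the 10 genes and negative for none (edgeR; 0 at an unadjusted p under 0.05 and 0 by DESeq2), where 16.8% of 14020 tested genes were called positive and 14.7% negative. The median of the 10 was 0.54 beside -0.011 over all genes. The 6 genes were *Dnajb9* (1.51 ± 0.24, SE), *Hspa5* (1.13 ± 0.22), *Pdia4* (1.02 ± 0.15), *Xbp1* (0.82 ± 0.13), *Canx* (0.63 ± 0.13) and *Hsp90b1* (0.45 ± 0.12), with edgeR adjusted p from 2.53e-05 (*Pdia4*) to 0.00534 (*Hsp90b1*), and each call held in all 20 fits that left out a library. *Pdia6* (0.35, edgeR adjusted p = 0.126) and *Sdf2l1* (0.43, edgeR adjusted p = 0.129) passed the test without WT day 5 replicate 5 (0.50 and 0.56, edgeR adjusted p = 0.00488 and 0.0287), which made 8 genes. *Calr* (0.25) and *Pdia3* (-0.0023) did not pass with or without that library. The interaction of *Hspa5* was 1.37 without it. A positive interaction can hold a lower Abcb10-null level at day 0, a higher one at day 5, or both. The log2 differences of Abcb10-null from WT cells at days 0 and 5 were -0.41 and 0.027 for *Hsp90b1*, -0.51 and 0.49 for *Pdia4*, and 0.020 and 0.63 for *Canx*.

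Next, Abcb10-null cells were compared with WT cells at each day. At day 0, before DMSO, 5 of the 10 genes were lower in Abcb10-null cells and none was higher (edgeR; 0 at an unadjusted p under 0.05 and 0 by DESeq2), where 16.2% of 12912 tested genes were lower and 19.7% higher. The median of the 10 genes was -0.23 on the log2 scale, beside -0.0019 over all genes. The genes were *Pdia4* (-0.51 ± 0.062), *Hsp90b1* (-0.41 ± 0.052), *Hspa5* (-0.35 ± 0.053), *Sdf2l1* (-0.25 ± 0.067) and *Pdia3* (-0.23 ± 0.066), with edgeR adjusted p from 3.51e-06 to 0.0101, and all 5 calls held in each of 10 fits that left out a library.

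At day 0 *Pdia4* was at 290, 303, 275, 345 and 294 CPM in Abcb10-null libraries, each below the lowest WT library at 399 CPM. *Hsp90b1* was at 973, 956, 907, 979 and 936 CPM, below the lowest WT library at 1220 CPM. For *Hspa5* and *Sdf2l1* the genotypes did not overlap either, and for *Pdia3* they did. Over all genes tested, 9.14% lay below WT without overlap at day 0 and 13.7% above. For the 4 genes without overlap an exact permutation test of 5 against 5 libraries can only give its smallest p, 0.00794 two-sided (0.0124 after adjustment over 70 tests on the 10 genes). It therefore restates the lack of overlap. *Canx* (0.020, edgeR adjusted p = 0.812), *Calr* (-0.066, 0.578), *Xbp1* (-0.058, 0.512), *Pdia6* (-0.13, 0.0722) and *Dnajb9* (-0.23, 0.331) did not pass the test, and the SE of *Dnajb9* was 0.17. When all 30 libraries shared a single estimate of the spread, 2 of the 5 genes passed.

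**Figure D3:**
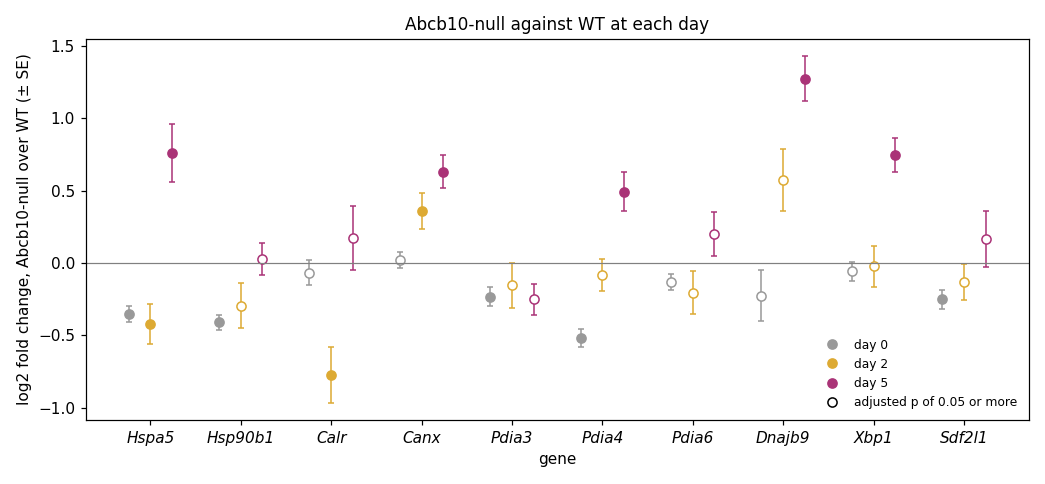
Log2 fold change of Abcb10-null over WT cells at day 0 (grey), day 2 (yellow) and day 5 (purple) for each gene, from edgeR with its SE as bars; open circles are changes with an adjusted p of 0.05 or more. *Hspa5* and *Pdia4* lie below 0 at day 0 (-0.35 and -0.51) and above 0 at day 5 (0.76 and 0.49), and *Dnajb9* has the highest point at 1.27.

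At day 2 the genotypes differed for few of the genes: *Calr* and *Hspa5* were lower and *Canx* was higher in Abcb10-null cells, where 16.9% of 13053 tested genes were lower and 14.9% higher. The median of the 10 genes was -0.14 beside -0.0022. *Calr* was at 90.3, 181, 125, 123 and 110 CPM in Abcb10-null libraries and at 246, 244, 172, 214 and 164 CPM in WT libraries, and only Abcb10-null replicate 2 reached the WT range (-0.77 ± 0.19, edgeR adjusted p = 0.0102). *Canx* was at 1224, 971, 1134, 1295 and 903 CPM against 794, 791, 898, 883 and 796 CPM, with no overlap (0.36 ± 0.13, edgeR adjusted p = 0.0438). *Hspa5* did not overlap between the genotypes either, where 8.11% of all genes tested lay below WT and 8.02% above without overlap (-0.42 ± 0.14, edgeR adjusted p = 0.0325), but this call held in 3 of 10 fits that left out a library, and that of *Canx* in 2 of 10.

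More genes passed at day 2 without Abcb10-null replicate 2, which had the highest level of its group for *Hsp90b1* (606 CPM), *Calr* (181), *Pdia3* (285), *Pdia6* (331) and *Sdf2l1* (127). Without it the 3 calls stood and 4 genes joined them: 5 were lower, *Calr* (-0.95), *Hspa5* (-0.47), *Hsp90b1* (-0.43), *Pdia6* (-0.34) and *Pdia3* (-0.32), and 2 were higher, *Dnajb9* (0.64) and *Canx* (0.40), with edgeR adjusted p from 0.00104 to 0.0403. With it, *Dnajb9* was at 0.57 (SE 0.21, edgeR adjusted p = 0.0559). The exact permutation test on *Dnajb9* with all libraries gave p = 0.0238 (0.0327 after adjustment over the tests on the 10 genes), so the 2 tests differ on it.

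By day 5, 5 of the 10 genes were higher in Abcb10-null cells and none was lower (edgeR; 1 at an unadjusted p under 0.05, *Pdia3*, and 0 by DESeq2), where 19.8% of 12676 tested genes were higher and 17.8% lower. The median of the 10 genes was 0.35 beside -0.016 over all genes. They were *Dnajb9*, 2.42-fold higher (log2 1.27 ± 0.16, edgeR adjusted p = 7.03e-05), *Hspa5*, 1.69-fold (0.76 ± 0.20, 0.0105), *Xbp1*, 1.68-fold (0.75 ± 0.11, 0.000347), *Canx* (chr11:50293961-50325673, - strand), 1.55-fold (0.63 ± 0.11, 0.000975), and *Pdia4*, 1.41-fold (0.49 ± 0.14, 0.0123). *Hspa5* and *Pdia4* had been called lower at day 0, while *Dnajb9*, *Xbp1* and *Canx* had not passed the test then. All 5 calls held in each of 10 fits that left out a library. The groups shared the libraries of the interaction test, so these values are not a further set of evidence for it.

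At day 5 each Abcb10-null library was above each WT library for *Dnajb9* (lowest 21.6 against highest 13.1 CPM), *Xbp1* (251 against 200 CPM) and *Canx* (947 against 830 CPM), where 13.3% of all genes tested lay above WT without overlap and 10.5% below. The exact permutation test restates this, since without overlap it can only give its smallest p, 0.00794 (0.0124 after adjustment). For *Hspa5* and *Pdia4* 3 of 5 Abcb10-null libraries were above all WT libraries, since WT replicate 5 reached 3022 and 159 CPM. Without WT replicate 5 *Hspa5* was 1.00 higher on the log2 scale (edgeR adjusted p = 9.87e-05), *Pdia4* 0.62 higher, and *Pdia6* joined the called genes (0.34, edgeR adjusted p = 0.0395). The remaining genes did not pass the edgeR test: *Hsp90b1* was at 0.027 (SE 0.11), *Calr* at 0.17 (SE 0.22), *Sdf2l1* at 0.17 (SE 0.19), *Pdia6* at 0.20 (SE 0.15) and *Pdia3* at -0.25 (SE 0.11, edgeR adjusted p = 0.0846). For *Pdia3*, with means of 195 CPM in Abcb10-null and 231 in WT libraries, 4 of 5 Abcb10-null libraries lay below all WT libraries, and the exact permutation test on this gene alone gave p = 0.0238 (0.0327 after adjustment), so the 2 tests differ on it. In bulk samples fewer cells of a type and less RNA per cell cannot be told apart, and the erythroid marker sum was lower in Abcb10-null than in WT libraries at day 5, without overlap; its part in these differences was not tested.

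At day 5 *Atf4* and *Ddit3* were higher in Abcb10-null cells, and none of the 3 sensor genes passed the test. *Atf4*, whose product raises amino acid synthesis and stress genes, was at 584, 488, 547, 613 and 698 CPM in Abcb10-null and 188, 135, 166, 181 and 415 CPM in WT libraries at day 5, with no overlap (1.43 ± 0.25, edgeR adjusted p = 0.000752). Without WT replicate 5 the difference of *Atf4* was 1.79. *Ddit3*, which encodes CHOP, a factor downstream of ATF4, was at 298, 382, 417, 364 and 516 CPM against 69.2, 54.5, 65.99, 72.4 and 321 CPM. Here WT replicate 5 alone reached the Abcb10-null range. The difference was 1.77 ± 0.43 (edgeR adjusted p = 0.00604) and 2.58 ± 0.16 without that library. *Ern1* (-0.37), *Eif2ak3* (-0.074) and *Atf6* (-0.21) did not pass the test at day 5, with edgeR adjusted p of 0.333, 0.656 and 0.481. Leaving out each library in turn gave -0.522 to 0.0294 for *Ern1* and -0.313 to 0.0519 for *Atf6*, so their sign was not settled.

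**Figure D4:**
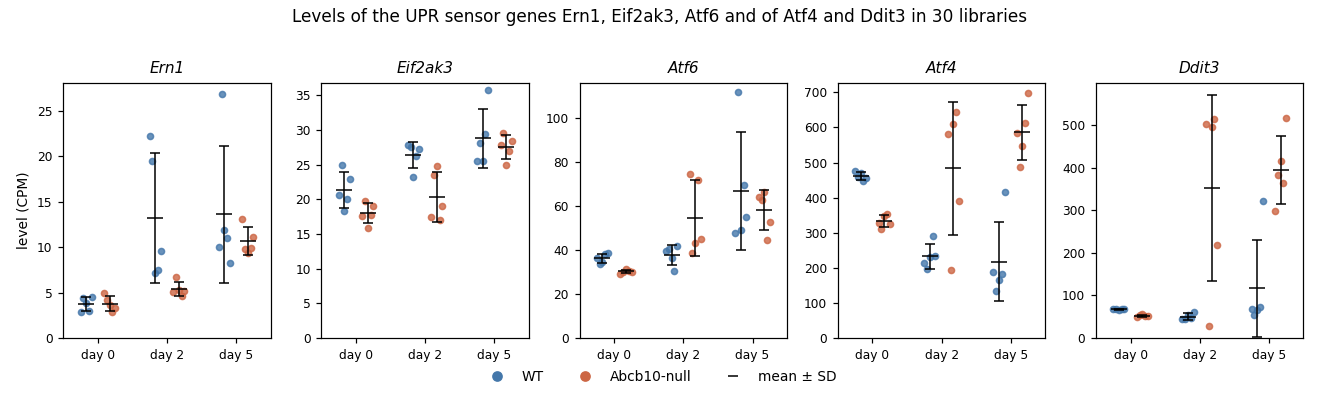
Level in CPM (vertical axis, from 0) of the UPR sensor genes *Ern1*, *Eif2ak3* and *Atf6* and of *Atf4* and *Ddit3* in each library by day, in WT (blue) and Abcb10-null (orange) cells; black marks the mean ± SD of 5. *Atf4* and *Ddit3* are higher in Abcb10-null cells at days 2 and 5 except in Abcb10-null day 2 replicate 2 (193 and 29.3 CPM), and WT day 5 replicate 5 is the high WT point of both (415 and 321 CPM).

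At day 2, when *Hspa5* was lower in Abcb10-null cells, *Ddit3* was already 2.75 higher (SE 0.53, edgeR adjusted p = 0.00421) and *Atf4* 1.00 higher (SE 0.26, edgeR adjusted p = 0.0120), with replicate 2 below all WT libraries for both. *Ern1* was lower at that day (-1.36 ± 0.33, edgeR adjusted p = 0.00959), at 4.62 to 6.68 CPM against 7.20 to 22.3 CPM in WT. WT day 2 replicates 1 and 2 held 22.3 and 19.5 CPM of *Ern1*, and replicates 3 to 5 held 7.20 to 9.62 CPM. *Slc4a1* (14.38 and 14.04 against 0.933 to 2.27 CPM) and *Abcb10* (658 and 660 against 474 to 539 CPM) split the same way. The size of the *Ern1* difference thus rests in part on WT replicates 1 and 2, which were not left out together. *Eif2ak3* was lower too (-0.42 ± 0.15, edgeR adjusted p = 0.0462), in 3 of 10 fits that left out a library, while *Atf6* was at 0.48 (SE 0.19, edgeR adjusted p = 0.0697). Without Abcb10-null replicate 2 *Atf6* passed the test as higher (0.58, edgeR adjusted p = 0.0213), with *Atf4* at 1.20 and *Ddit3* at 3.06. At day 0 *Atf4* (-0.48), *Ddit3* (-0.38) and *Atf6* (-0.27) were lower in Abcb10-null cells. From day 0 to day 5 *Ern1* rose in WT (1.87) and in Abcb10-null cells (1.50), as did *Atf6* (0.88 and 0.95) and *Eif2ak3* (0.43 and 0.62), and none of the 3 passed the test of the interaction. The WT rise of *Ern1* was 1.46 to 2.00 with each library left out in turn. *Atf4* fell in WT (-1.09) and rose in Abcb10-null cells (0.82), with an interaction of 1.92 ± 0.27 (edgeR adjusted p = 9.58e-06). Without WT day 5 replicate 5 its change in WT was -1.465 and its interaction 2.29.

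Other genes of the pathway were taken from 7 lists of ER genes, 154 in all, of which 142 passed the filter. At day 0, 46 of the 142 (32.4%) were lower in Abcb10-null cells and 15 (10.6%) higher, beside 16.2% and 19.7% of all genes tested. With all 30 libraries in 1 fit these counts were 8 and 5. At day 2, 14 (9.86%) were lower and 24 (16.9%) higher, beside 16.9% and 14.9% of all genes. The count of higher genes at day 2 was 10 to 15 when any of WT replicates 1, 2, 4 or 5 or Abcb10-null replicates 1, 3 or 4 was left out, and 45 with all 30 libraries in 1 fit, and without Abcb10-null replicate 2 it was 33, with 18 lower. At day 5, 12 (8.45%) were lower and 53 (37.3%) higher, beside 17.8% and 19.8% of all genes. The median of the 142 was -0.11, 0.090 and 0.21 at the 3 days. Without WT day 5 replicate 5, 64 were higher and 15 lower at day 5. For the interaction 55 of 143 were positive (38.5%) and 9 negative (6.29%), beside 16.8% and 14.7% of all genes.

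**Figure D5:**
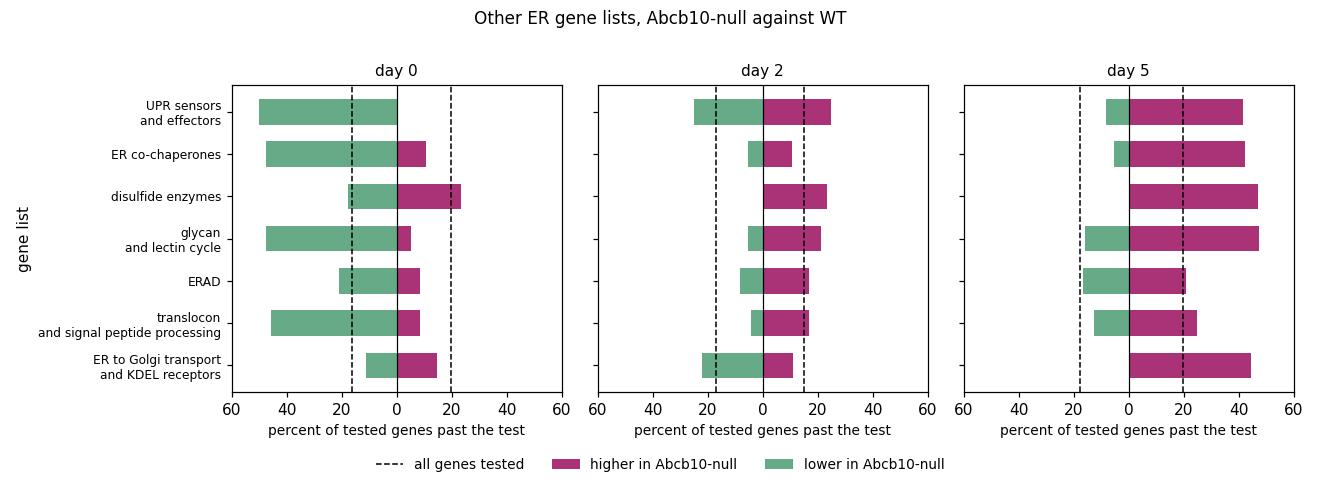
Percent of the tested genes of each of 7 ER lists that were higher (purple, to the right) or lower (green, to the left) in Abcb10-null than in WT cells at days 0, 2 and 5, by edgeR at an adjusted p under 0.05; dashed lines are the same percents over all genes tested (19.8% higher and 17.8% lower at day 5). At day 5 all 7 lists have more higher than lower genes, from 5 against 4 of 24 in ERAD to 12 against 0 of 27 in ER to Golgi transport.

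The counts by list at day 5 stand beside 19.8% of all genes tested higher and 17.8% lower. Among UPR sensors and effectors 5 of 12 were higher and 1 lower (41.7% and 8.33%). *Trib3*, a pseudokinase gene downstream of ATF4 and CHOP, was 8.39-fold higher (log2 3.07 ± 0.79, edgeR adjusted p = 0.00894), and *Ppp1r15b*, a subunit of the phosphatase of eIF2, was lower (-0.56 ± 0.16, edgeR adjusted p = 0.0159) and shares 11.4% of its exon bases with a transcript on the opposite strand. Without WT replicate 5 the difference of *Trib3* was 5.10 on the log2 scale. Among ER co-chaperones 8 of 19 were higher and 1 lower, led by the prolyl isomerase genes *Fkbp7* (1.49) and *Fkbp11* (0.96), the former at 3.18 CPM and called in 7 of 10 fits that left out a library. *Dnajc10* (ERdj5), a J-domain reductase, was lower (-0.36).

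Disulfide enzymes were higher in 8 of 17 cases and lower in none, and the same 0 held at an unadjusted p under 0.05 and by DESeq2. *Txndc12*, a thioredoxin-like protein gene, was 3.85-fold higher (log2 1.94 ± 0.20) and *Ero1l*, the oxidase that recharges the isomerases, 2.44-fold (1.29 ± 0.14, edgeR adjusted p = 2.69e-05). In the glycan and lectin cycle 9 of 19 were higher and 3 lower, with the oligosaccharyltransferase subunit genes *Krtcap2* (1.92) and *Rpn2* (0.80) highest and *Ost4*, another subunit, lowest (-0.74). *Ost4* shares 53.2% of its exon bases and *Krtcap2* 15.7% with a gene on the opposite strand, so their values are uncertain. In ER-associated degradation (ERAD), which returns misfolded proteins to the cytosol, 5 of 24 were higher and 4 lower (20.8% and 16.7%), near the shares over all genes. There *Herpud1* was 5.38-fold higher (2.43 ± 0.28, edgeR adjusted p = 5.15e-05), while *Syvn1*, the ubiquitin ligase HRD1, was lower (-0.86) and so was *Vcp*, the ATPase that pulls out its substrates (-0.53).

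For the translocon and signal peptide processing 6 of 24 were higher, among them *Srprb* (0.69) and *Sec61a1* (0.59), and 3 lower, among them *Sec61a2* (-0.65) and *Sec61g* (-0.65). These counts are also near the shares over all genes, and *Srprb* and *Sec61a2* share 20.7% and 19.9% of their exon bases with another gene. The call of *Sec61a1* held in 3 of 10 fits that left out a library. ER to Golgi transport was higher in 12 of 27 cases and lower in none (0 at an unadjusted p under 0.05 and 0 by DESeq2), led by the cargo receptor genes *Tmed9* (0.74 ± 0.13) and *Tmed5* (0.71 ± 0.15).

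In WT cells from day 0 to day 5, 70 of 142 listed genes fell (49.3%) and 37 rose (26.1%), beside 34.7% and 36.5% of all genes. In Abcb10-null cells 55 fell (38.7%) and 56 rose (39.4%), near the 33.3% and 33.9% of all genes. In the glycan and lectin cycle 14 of 19 (73.7%) fell in WT cells and none rose (0 at an unadjusted p under 0.05 and 0 by DESeq2), and among ER co-chaperones 13 of 19 (68.4%) fell in either genotype, with *Fkbp11* (-4.10) and *Creld2* (-2.16) the deepest in WT cells. ERAD genes rose in 12 of 24 cases in WT and 14 of 24 (58.3%) in Abcb10-null cells. *Herpud1* fell in WT (-1.01) and rose in Abcb10-null cells (1.80), and its interaction was 2.82 ± 0.31 (edgeR adjusted p = 4.32e-07). Without WT day 5 replicate 5 its change in WT was -1.48 and its interaction 3.27. Of UPR sensors and effectors 11 of 12 (91.7%) rose in Abcb10-null cells by day 5, led by *Trib3* (4.41) and *Ppp1r15a* (3.86), beside 5 of 12 (41.7%) in WT, led by *Ppp1r15a* (2.73) and *Ern1* (1.87).

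As a description over the 30 libraries, which share day and genotype, the log2 levels of the 10 genes were correlated to unlike degrees, and no grouping was tested. *Hsp90b1* and *Pdia3* had the highest Pearson r (0.965), followed by *Pdia6* with *Sdf2l1* (0.957) and *Hsp90b1* with *Pdia6* (0.949). *Dnajb9* had a negative r with 8 of the other 9 genes, from -0.046 with *Hspa5* to -0.643 with *Sdf2l1*, and a positive r with *Xbp1* (0.530). Of 8549 genes ranked by likeness to *Hspa5*, the 5 nearest were the gamma-actin gene *Actg1* (r = 0.893), the heme transporter gene *Slc48a1* (0.892), *Trabd* (0.888), *Manf* (0.885) and *Surf4* (0.880). Like *Hspa5*, *Manf*, which encodes a secreted ER stress factor, and *Surf4*, a cargo receptor gene, were lower in Abcb10-null cells at day 0 (-0.58 and -0.39), with mean levels of 214 and 143 CPM in WT and Abcb10-null cells for *Manf* and 140 and 108 for *Surf4*, while at day 5 their means were 72.1 and 96.2 CPM and 70.6 and 105 CPM. The means of *Actg1*, *Slc48a1* and *Trabd* had the same order at both days. For *Slc48a1* they were 257.3 and 209.5 CPM in WT and Abcb10-null cells at day 0 and 109.8 and 139.1 CPM at day 5. Since the 5 genes were picked by their likeness to *Hspa5* over these same libraries, a shared order follows from the choice and is not further evidence.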

How the data were processed

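Ribosomal and globin RNA were depleted by the authors, stranded libraries were made, and reads were aligned to GRCm38 (STAR 2.6.1b) and assigned to Ensembl 94 genes (featureCounts 1.6.3, per the labels). The deposited values are raw counts per gene and library. Tests on counts used edgeR 4.0.16 in R 4.3.3 (TMM, filterByExpr, glmQLFit, glmQLFTest), with Benjamini-Hochberg adjusted p under 0.05 over all genes tested, using only the libraries of the groups compared. CPM values are counts over TMM-scaled library size, and permutation tests used log2(CPM + 0.5). Positions are from GENCODE M21 (GRCm38), in which 37 gene IDs with 0.0116% of counts were not found. A few listed genes are named per comparison by rule: up to 2 called genes with the largest change in each direction. One listed marker is not reported here. The members, lists and tests were chosen with earlier results of these data known. Fits were checked on simulated data. Between replicate libraries the spread exceeded counting error (lowest chi-square per degree of freedom 6.48). Libraries sharing a number made 75 pairs, whose deviations correlated from -0.339 to 0.496 (median -0.0268, 10 over 0.1). Libraries were not paired, since no source used here says that the number marks a shared culture or day. Whether some groups shared a batch was not tested. Alternatives were DESeq2 1.42.0, its size factors in edgeR, other filters (at least 1 count; at least 10 in every library), all 30 libraries in 1 fit, leaving out 6142 globin, mitochondrial and small RNA genes, a replicate block, and each library left out.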

Additional observations from a re-analysis of the deposited data

Results flagged for a closer look

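In 60 groups of 5 libraries (10 genes in 6 groups), 4 had a library whose distance from its nearest neighbour, as a share of the range of its group, was above Dixon's 95% critical value. Chance gives about 1 in 20 groups, so 4 of 60 is near that rate. *Hspa5* was at 3022 CPM and *Calr* at 262 CPM in WT day 5 replicate 5, *Sdf2l1* at 127 CPM in Abcb10-null day 2 replicate 2, and *Hsp90b1* at 1339 CPM in WT day 0 replicate 3, each above the rest of its group. In the first and second of these libraries *Atf4* and *Ddit3* also lay outside the range of their group, at 415 and 321 CPM in WT day 5 replicate 5 and at 193 and 29.3 CPM in Abcb10-null day 2 replicate 2.

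The change from day 0 to day 5 differed between the genotypes, by the interaction test, for *Hspa5* (1.13 on the log2 scale), *Hsp90b1* (0.45), *Canx* (0.63), *Pdia4* (1.02), *Dnajb9* (1.51) and *Xbp1* (0.82). *Xbp1* alone among the 10 genes had a change that passed the test in both genotypes with opposite signs.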

How the results depend on the processing

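Depth limited *Dnajb9* most, with 82 to 401 reads in a library. Over 8 comparisons, direction and side of the threshold were kept in 540 of 560 single-gene results across 7 settings. DESeq2's size factors in edgeR moved the median change of all genes most in the interaction, by -0.0245. The counts that moved beyond 1.5 times were few. With all 30 libraries in 1 fit, 2 genes of the 10 were lower at day 0 and 2 higher at day 2, and the listed ER genes gave 5 higher and 8 lower at day 0 and 45 higher at day 2, and *Xbp1* at day 2 was 0.027. At day 2, 2 of the 10 genes were higher with DESeq2 and without globin, mitochondrial and small RNA genes, and 0 with all genes of at least 1 count or of at least 10 counts in every library; 1 was lower with genes of at least 1 count and without globin, mitochondrial and small RNA genes, where *Xbp1* was 0.00029. With genes of at least 1 count *Hsp90b1* at day 5 was -0.014, the interaction of *Pdia3* 0.0012 and the listed ER genes with a negative interaction 2; without globin, mitochondrial and small RNA genes the interaction of *Pdia3* was 0.00058. The cause was not tested.

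With the replicate block, 0 of the 10 genes were higher and 1 lower at day 2, and 15 listed ER genes were higher; the libraries share only a number, and the block changed no other count by over 1.5 times.

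Leaving out each library in turn gave 0 to 2 genes higher and 1 to 5 lower at day 2, 10 to 33 listed ER genes higher at day 2, 0 to 1 gene higher at day 5 in WT cells and 5 to 11 listed ER genes with a negative interaction. Differences near 0 crossed it: *Canx* at day 0 (-0.013 to 0.039), *Xbp1* at day 2 (-0.10 to 0.048), *Hsp90b1* at day 5 (-0.024 to 0.065), *Dnajb9* at day 2 in WT cells (-0.18 to 0.053) and the interaction of *Pdia3* (-0.067 to 0.053).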
